A study of Mus musculus with 4 samples.

Results

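The Hox genes encode homeodomain transcription factors that give cells their place along the head-to-tail axis of the embryo. All genes whose symbol is Hox followed by a cluster letter from a to d and a number were taken, which gave 39 members of the 32285 genes in the count matrices. They were measured in single cells of the aorta-gonad-mesonephros region (AGM), the trunk tissue in which haematopoietic stem cells first appear, taken from C57BL/6J mouse embryos at E11.5, in mid-gestation. Freshly isolated cells were sorted for CD31, a surface protein of endothelial and many blood cells, and then by the brightness of TMRM, a dye that enters mitochondria according to their membrane potential. Cells of low mitochondrial membrane potential (MMPlow, 2 libraries) were set against cells of high potential (MMPhigh, 2 libraries), and all 4 libraries share the strain, the age, the tissue and the CD31 sort. The series asks which transcripts go with the mitochondrial activity of blood stem cells, and the 4 libraries include no unsorted cells. Neither the number of embryos pooled into a library nor a separate dissection for each library is given in the sources used here, so p-values measure the spread between libraries, which may be partly technical.

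The mouse Hox genes lie in 4 clusters, each on its own chromosome, and members with the same number, called a paralog group, descend from a common ancestral gene. Low numbers lie at the 3' end of a cluster and are switched on early and far forward, high numbers lie at the 5' end and are switched on later and further back, a rule known as collinearity. Hox proteins bind DNA together with the TALE homeodomain partners Pbx, Meis and Pknox. Trithorax-type and Polycomb-type chromatin complexes keep the clusters on or off. In the trunk the members are known from the spinal cord, where they set motor neuron identity, from the mesoderm, where they set vertebral and limb position, and from blood, where Hoxa9 and Hoxb4 act in stem and progenitor cells. In the GENCODE annotation of GRCm38 (mm10), HoxA has 11 members on the minus strand of chromosome 6. HoxB has 10 members within chr11:96194316-96368256, HoxC 9 within chr15:102921103-103036852 and HoxD 9 within chr2:74668310-74765142, all on the plus strand.

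The libraries differed in size and depth: 3486 to 19579 cells passed the filters per library, 3389 to 18404 were kept after doublet removal, and the median depth was 3145 to 3741 UMIs per cell in 3 libraries and 24045 in MMPhigh 2. A UMI is a unique molecular identifier, which counts 1 captured transcript. Between 14 and 369 cell barcodes recurred in each pair of libraries. Lineages were assigned from marker genes that hold no Hox gene. These genes do not include Pecam1, which encodes CD31, so the sort by CD31 and TMRM was not checked. A cell was put in a lineage when it held at least 3 UMIs of a 12-gene panel and that panel made up at least 80% of its UMIs over the 4 panels. The blood gate held 1050, 1568, 770 and 1125 cells, the mesenchyme gate 271, 392, 217 and 318, and the neural gate 252, 324, 1174 and 1139, always in the order MMPlow 1, MMPlow 2, MMPhigh 1, MMPhigh 2. The endothelium gate held 6025 and 7232 cells in MMPlow but 19 and 17 in MMPhigh, so endothelium is given for MMPlow only. The MMPhigh libraries were thus almost without cells that passed the endothelium gate. In neural-gated cells the 12 endothelial genes summed to 402 and 364 CPM (counts per 1000000) in MMPlow and 14.1 and 14.6 in MMPhigh. The neural gate itself limits the UMIs of other panels in these cells. All levels below are CPM, UMIs of a gene per 1000000 UMIs of the summed cells, with no scaling for gene length because 3' counting yields 1 tag per transcript.

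RefSeq start-site windows on GRCm38.p6, from 250 bases before to 50 after an annotated start, were found for 22 of the 39 members. These 4 are shown because their genes mark the patterns that follow. Hoxa9 has the highest mean level in blood and endothelium, and Hoxb1 has the largest excess in neural cells over mesenchyme. Hoxb8 is a HoxB member near the 5' end, and Hoxc4 belongs to HoxC, the cluster with the smallest share in endothelium. Capitals mark the TATA box TATAAA, the CCAAT box, the core TGATNNAT bound by Pbx with Hox, and the core TTTATG bound by caudal factors, on either strand. The letters TTTATA and TTTATG differ in their last base only, and matches may overlap.
Hoxa9: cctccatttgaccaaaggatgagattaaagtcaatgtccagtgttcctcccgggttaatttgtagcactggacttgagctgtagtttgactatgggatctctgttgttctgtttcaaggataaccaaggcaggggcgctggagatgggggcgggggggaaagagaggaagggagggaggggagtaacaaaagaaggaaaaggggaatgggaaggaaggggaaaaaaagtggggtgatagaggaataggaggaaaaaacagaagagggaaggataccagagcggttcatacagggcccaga
Hoxb1: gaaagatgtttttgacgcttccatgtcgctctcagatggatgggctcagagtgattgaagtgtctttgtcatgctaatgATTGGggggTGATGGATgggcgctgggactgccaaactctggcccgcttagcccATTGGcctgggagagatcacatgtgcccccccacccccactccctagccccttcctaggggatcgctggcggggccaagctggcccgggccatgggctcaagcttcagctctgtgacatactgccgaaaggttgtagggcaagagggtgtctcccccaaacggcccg
Hoxb8: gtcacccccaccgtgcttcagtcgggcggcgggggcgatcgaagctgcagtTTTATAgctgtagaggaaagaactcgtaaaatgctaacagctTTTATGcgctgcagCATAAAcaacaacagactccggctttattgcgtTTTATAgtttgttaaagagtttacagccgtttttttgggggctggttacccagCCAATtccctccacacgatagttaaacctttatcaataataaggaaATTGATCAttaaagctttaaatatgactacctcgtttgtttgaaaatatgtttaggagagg
Hoxc4: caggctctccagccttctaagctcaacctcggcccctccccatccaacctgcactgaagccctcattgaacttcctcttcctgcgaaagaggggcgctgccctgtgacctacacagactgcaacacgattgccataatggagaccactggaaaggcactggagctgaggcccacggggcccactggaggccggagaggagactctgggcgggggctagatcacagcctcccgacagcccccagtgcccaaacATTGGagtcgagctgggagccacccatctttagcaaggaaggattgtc
The Hoxa9 window (chr6:52227321-52227620, minus strand) held none of the 4 motifs. The Hoxb1 window (chr11:96365508-96365807, plus) held 2 CCAAT and 1 TGATNNAT, and the Hoxc4 window (chr15:103034145-103034444, plus) held 1 CCAAT. The Hoxb8 window (chr11:96281655-96281954, plus) held all 4 motifs, with 2 TATAAA, 1 CCAAT, 1 TGATNNAT and 2 TTTATG. Over the 24 windows of Hox members, 62.5% held a CCAAT, against 37.4% of all 32851 windows. TATAAA was present in 16.7% against 13.6%, TGATNNAT in 16.7% against 8.85% and TTTATG in 20.8% against 11.9%. Hox windows had a median GC content of 57.7% against 52.7% over all windows.

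Hox transcripts were most abundant in neural cells, intermediate in mesenchyme, lower in endothelium and lowest in blood. Summed over the 39 members, neural cells held 2969, 3205, 3934 and 4122 CPM (mean 3558 ± 557, SD, n = 4). Mesenchyme held 870.4, 857, 1185 and 1246 CPM (1039.8 ± 205, n = 4). Endothelium held 293 and 295 CPM (294 ± 1.71, n = 2), and blood held 88.9, 65.5, 54.0 and 43.0 CPM (62.8 ± 19.7, n = 4). The 4 ranges did not overlap, so the order held in each library that had the cells. Neural and mesenchymal cells were higher in both MMPhigh libraries than in both MMPlow libraries, and blood was lower.

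Clusters of cells, made without Hox genes and named from fixed marker lists, were ordered much as the lineages in their summed UMIs. Neuron-like cells had the most Hox transcripts, with 2882, 3002, 4722 and 4476 CPM. Glial or neural crest-like cells held 1054 to 1401 CPM and mesenchymal-like cells 939 to 1329, ranges that overlapped, and muscle progenitor-like cells lay below both at 675 to 928. Epithelial or mesonephric-like cells held 384 and 450 CPM in MMPlow. Their leading genes included Epcam, Krt8, Krt18 and Trp63, an epidermal regulator, and none of the kidney genes on the list that named them. Endothelial-like cells held 294 and 303 CPM. In these sums the 5 blood classes lay below the classes named so far, which did not hold at equal depth per cell, as given with the shares of cells: megakaryocyte-like cells held 68.1 to 166 CPM, macrophage-like 45.5 to 152, erythroid-like 35.3 to 223, haematopoietic progenitor-like 16.2 to 123, and granulocyte or mast-like 91.4 and 107. These blood ranges overlapped one another, and the means of 77.4 to 107 did not separate beyond their spread. Germ cell-like cells held 60.2 to 241 CPM and overlapped the blood classes.

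**Figure D1:**
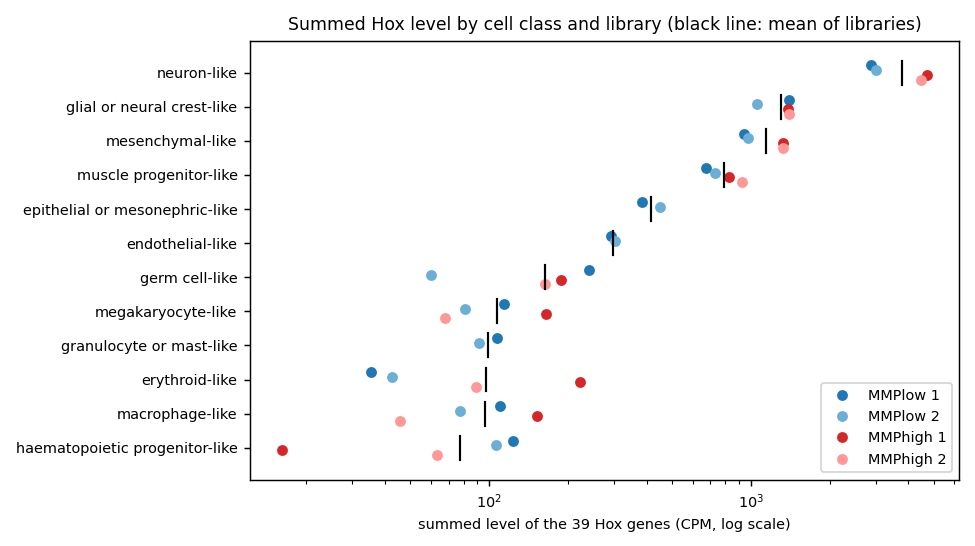
Summed Hox level of each cell class, in CPM on a log axis, with 1 dot per library coloured by MMP group and a black line at the mean. Neuron-like cells lie between 2882 and 4722 CPM, and the 5 blood classes lie at 223 CPM or below in each library shown.

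The erythroid-like value rested on 2 clusters with unlike levels. Cluster 23 pooled to 29.3 CPM, the lowest of the 29 clusters. Cluster 11 pooled to 642 CPM and supplied 734 of the MMPhigh 1 cells, 98 of MMPhigh 2 and 3 and 8 of the MMPlow cells. Its neural panel stood at 875 and 1990 CPM in the MMPhigh libraries, against 28.5 to 59.3 CPM in cluster 23, and the part of such neural RNA in its Hox level was not tested. Without cluster 11 the erythroid-like mean was 28.2 CPM in place of 97.5.

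The 4 Hox clusters contributed in different proportions. In neural cells HoxB held 42.7 ± 1.27% of all Hox UMIs, HoxC 25.6 ± 1.16%, HoxA 23.4 ± 1.68% and HoxD 8.22 ± 0.35% (SD, n = 4). In mesenchyme HoxC led with 37.5 ± 5.42%, followed by HoxA at 29.6 ± 1.60% and HoxB at 23.6 ± 4.10%. In endothelium HoxA and HoxB were close, at 40.8 ± 0.52% and 39 ± 0.25% (n = 2), HoxD held 12.6 ± 0.19%, and HoxC had the smallest share at 7.57 ± 0.08%. Blood held 39.4 ± 6.40% HoxB, 30.8 ± 10.4% HoxA, 21.1 ± 5.61% HoxC and 8.75 ± 1.80% HoxD (n = 4), with HoxA the most variable share. Shares of broad bins of paralog groups differed less between lineages than shares of the Hox clusters. Paralog groups 4 to 8 held 49.6% of Hox UMIs in neural cells, 52.9% in mesenchyme, 52.0% in endothelium and 53.2% in blood. Groups 9 to 13 held 31.7%, 30.02%, 26.8% and 29.7%, and groups 1 to 3 held 18.7%, 17.1%, 21.2% and 17.1%. Over all cells Hoxa9 and Hoxb9 averaged 76.5 and 89.6 CPM of the 292 CPM of groups 9 to 13. The bins thus hide differences of more posterior members, such as Hoxc11 and Hoxd11 in endothelium, given below.

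**Figure D2:**
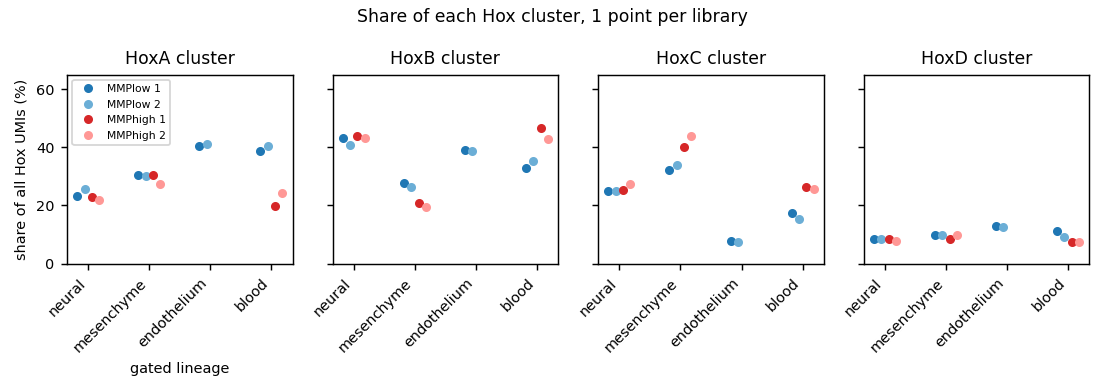
Share of all Hox UMIs that came from each Hox cluster, in percent, for the 4 gated lineages, with 1 point per library. HoxC stands at 7.57% in endothelium and at 37.5% in mesenchyme on average.

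Among single members, Hoxb9, a group 9 gene known from the thoracic spinal cord and rib cage, was the most abundant in neural cells. It stood at 357, 387, 472 and 432 CPM there, against 21.5, 24.8, 30.98 and 28.6 in mesenchyme and 5.77, 3.41, 5.60 and 4.16 in blood. Hoxb9 in every neural library exceeded every mesenchymal and blood library. Hoxa9, a group 9 gene, supports blood stem and progenitor cells and is a leukaemia oncogene. By mean CPM it was among the top 3 members of all 4 lineages. It stood at 244, 298, 281 and 297 CPM in neural cells, 70.02, 65.4, 85.4 and 93.5 in mesenchyme, 39.7 and 39.5 in endothelium and 9.09, 10.02, 2.84 and 3.51 in blood. The Hoxa9 ranges of the 4 lineages did not overlap, and within blood both MMPlow libraries were higher than both MMPhigh libraries.

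Hoxb3, an anterior group 3 gene of hindbrain and neck, was the third most abundant neural member by mean CPM. It stood at 167, 171, 271 and 305 CPM, and its rank varied between libraries. Hoxc8, known from thoracic vertebrae and brachial motor neurons, led the mesenchyme by mean CPM, at 58.1, 68.9, 100.2 and 168 CPM. The rank of Hoxc8 varied between libraries, and its level was higher in both MMPhigh libraries than in both MMPlow libraries. Hoxc8 was also high in neural cells, at 117, 163, 210.4 and 269 CPM, and stood at 3.86 and 3.66 CPM in endothelium. Hoxa7, a neighbour of Hoxa9 in the cluster, stood at 163, 186, 231 and 212 CPM in neural cells, 58.9, 50.6, 82.04 and 73.6 in mesenchyme, 19.6 and 19.7 in endothelium and 9.31, 6.08, 3.29 and 3.18 in blood. By mean CPM it was the third member of the mesenchyme and the second of blood. Hoxa3, an anterior gene of pharyngeal derivatives whose annotated span overlaps Hoxa4, Hoxa5 and Hoxa6 on the same strand, was second in endothelium at 24.4 and 25.3 CPM. How reads in such overlaps were assigned is not given in the sources used here, so its level is uncertain.

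Other members best known from blood had their lowest mean in blood and their highest in neural cells. Hoxb4, which expands blood stem cells when forced on, stood at 21.9 and 21.005 CPM in endothelium, 39.8, 34.2, 30.4 and 31.3 in mesenchyme and 4.66, 5.01, 4.53 and 2.89 in blood. Its neural level was 144, 147, 163 and 177 CPM. Hoxb5, reported as a mark of long-term stem cells in adult marrow, stood at 2.00, 1.28, 1.33 and 1.33 CPM in blood and 80.5, 54.3, 97.4 and 109 in neural cells. Hoxb8, used to immortalise myeloid progenitors, stood at 4.88, 3.30, 3.64 and 2.74 CPM in blood, 16.2 and 16.8 in endothelium and 179, 193, 228 and 234 in neural cells. Hoxa10, another regulator of progenitors, stood at 3.77, 1.60, 1.60 and 0.796 CPM in blood, 31.03, 33.7, 48.6 and 41.5 in mesenchyme and 68.8, 65.8, 79.3 and 71.7 in neural cells. In each of the 4 libraries the blood level of these genes lay under the level of mesenchyme and neural cells.

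Among the other members, Hoxc6, a gene of the neck-to-thorax boundary, stood at 189, 158, 207 and 227 CPM in neural cells, 61.3, 48.6, 71.2 and 78.1 in mesenchyme, 3.50 and 3.52 in endothelium and 3.10, 2.13, 2.40 and 2.27 in blood. Hoxc4, the most anterior HoxC gene, stood at 52.5, 54.5, 66.97 and 79.7 CPM in mesenchyme and 3.90 and 4.07 in endothelium. For both genes both endothelial libraries lay far under every mesenchymal library. Hoxb6 was closer, with 37.4, 35.2, 40.2 and 44.9 CPM in mesenchyme and 13.8 and 12.04 in endothelium, and Hoxb2, known from hindbrain and neural crest, stood at 28.6, 24.3, 27.3 and 22.9 CPM in mesenchyme and 5.83 and 7.44 in endothelium. The HoxD members Hoxd3 and Hoxd9 ranged from 77.6 to 133 and 33.7 to 47.6 CPM in neural cells, 16.7 to 30.1 and 10.4 to 21.2 in mesenchyme and 0.711 to 3.10 and 0.265 to 0.977 in blood. Hoxa2 (hindbrain and branchial arches), Hoxa4, Hoxa6 and Hoxd10 ranged from 9.15 to 21.3 CPM in neural cells and 3.18 to 14.9 in mesenchyme. Hoxd1, at the 3' end of HoxD, ranged from 0.732 to 2.86 CPM in neural cells and 0 to 2.17 in mesenchyme.

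**Figure D3:**
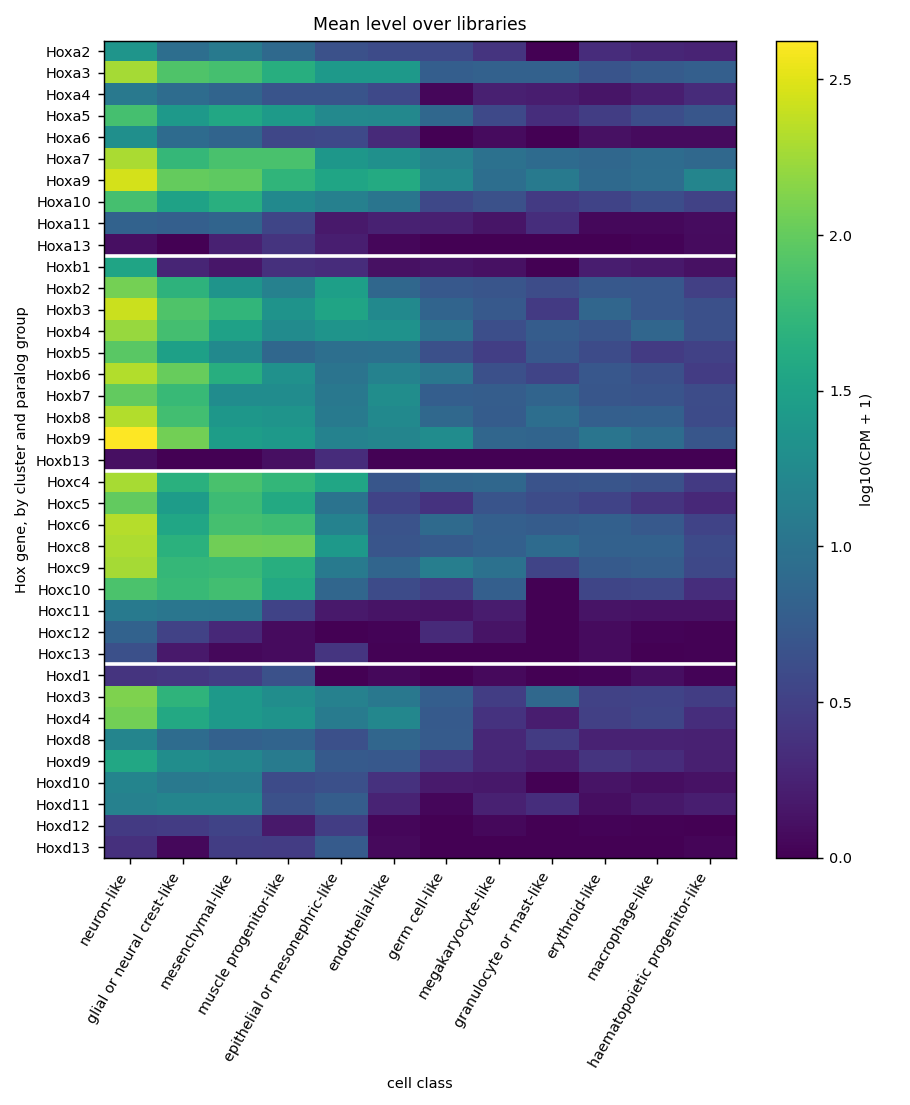
Mean level of 38 Hox genes (rows, by cluster and paralog group) in 12 cell classes (columns), as log10 of CPM plus 1, averaged over libraries. Neuron-like cells hold the highest values, HoxC rows are dark (low) in endothelial-like cells, and groups 11 to 13 and Hoxd1 are dark nearly throughout.

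The 5′ ends of the clusters, and Hoxd1, had few UMIs. Hoxb13 had 13 UMIs in all retained cells, Hoxa13 83, Hoxc13 102, Hoxd13 177, Hoxd12 180, Hoxd1 195 and Hoxc12 232, against 25983 for Hoxb9. Hoxb13 and Hoxa13, genes of the tail and hindgut end of the body, did not pass the filter on low counts in the fit of lineages, so 37 members were tested there. Hoxb13 was at 0 in all blood and mesenchyme sums.

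Blood was compared with mesenchyme, a trunk-derived lineage present in all libraries, and the contrast was taken within libraries. Nearly all members were lower in blood: 35 of the 37 tested fell and none rose. A member counted as called when its Benjamini-Hochberg adjusted p from the quasi-likelihood fit of edgeR was below 0.05, by which rule 66.6% of the 17094 genes were called and 33.1% were lower. The median Hox log2 fold was -4.10, against 0.01 over all genes tested. Hoxc11, a posterior gene of lumbosacral and hindlimb levels, fell most: its 9.55, 6.44, 11.7 and 10.8 CPM in mesenchyme compared with 0.222, 0.107, 0.267 and 0 in blood (log2 fold -6.40 ± 0.57 (SE), adjusted p 7.72e-07). Hoxd12 stood at 0.796, 0.991, 1.67 and 3.66 CPM in mesenchyme and 0, 0.107, 0 and 0 in blood (log2 fold -6.24 ± 0.90 (SE), adjusted p 4.89e-05). Both had at most 3 UMIs in any blood library, so these fitted folds depend on the prior count. Hoxc5 had more counts and fell by 5.62 on the log2 scale, from 38.2, 35.7, 70.6 and 70.6 CPM in mesenchyme to 1.55, 1.07, 0.888 and 0.884 in blood (adjusted p 7.43e-10), although its span overlaps Hoxc6, Hoxc8, Hoxc9 and Hoxc10.

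HoxB had the smallest median fall in blood. The median log2 fold was -2.93 for HoxB, -4.06 for HoxA, -4.54 for HoxD and -4.81 for HoxC. Hoxb9 had the smallest called fall, 5.04-fold (log2 fold -2.33 ± 0.13 (SE), adjusted p 1.48e-08), followed by Hoxb8 with 5.38-fold (log2 fold -2.43 ± 0.16 (SE), adjusted p 7.25e-08). Hoxb4 was 7.05-fold lower and Hoxa9 12.3-fold lower (log2 fold -3.62 ± 0.35 (SE), adjusted p 1.34e-05). Not called were Hoxb1, at under 1.3 CPM in both lineages, and Hoxc13, at 0 in all blood sums. Blood sums held 34.3 to 72.5 CPM of the 12-gene neural panel and 9.95 to 25.5 CPM of the mesenchyme panel. Of the neural panel 11, 10, 11 and 11 genes were detected, with Sox1 at 0 in all 4 libraries. The gate limits these levels, since it leaves out cells with many UMIs of other panels. The part of RNA from other cells in the Hox level of blood was not tested.

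Members of all 4 Hox clusters were lower in endothelium than in mesenchyme, and no difference between the clusters was tested. Of the 37 tested members 25 were lower and none higher, where 36.5% of genes were called and 17.1% were lower. Endothelium enters this contrast from MMPlow only, while mesenchyme enters from all 4 libraries, in a fit without separate MMP effects per lineage. HoxC had a median log2 fold of -3.88 and 8 of 9 members called, HoxD -2.99 with 6 of 9, HoxA -1.37 with 6 of 10 and HoxB -0.63 with 5 of 9. Hoxc11 stood at 0.604 and 0.205 CPM (log2 fold -4.52 ± 0.57 (SE), adjusted p 6.29e-05). Hoxd11, a gene of the sacral column and forearm, stood at 0.684 and 0.674 CPM in endothelium and 17.5, 11.9, 15.3 and 21.1 in mesenchyme (log2 fold -4.47 ± 0.39 (SE), adjusted p 3.22e-06). Hoxc12 stood at 0.0805 and 0.0586 CPM against 1.59, 0, 2.79 and 0.813 (log2 fold -4.43 ± 1.00 (SE), adjusted p 0.00401), a fold that rests on few UMIs. These 3 genes were lower in both endothelial sums than in every mesenchymal sum that had counts.

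Several HoxA, HoxB and 3' HoxD members did not pass the test between endothelium and mesenchyme. Hoxa9 had a log2 fold -0.97 ± 0.40 (SE), adjusted p 0.0861. Hoxd4, a group 4 gene whose annotated span lies within that of Hoxd3 on the same strand, so that its level is uncertain, stood at 14.5 and 14.9 CPM in endothelium and 15.1, 14.4, 21.8 and 27.6 in mesenchyme (log2 fold -0.17 ± 0.33 (SE), adjusted p 0.735). Hoxd8 stood at 6.12 and 6.36 against 6.37, 7.93, 6.70 and 6.51 CPM (log2 fold -0.19 ± 0.39 (SE), adjusted p 0.751). Hoxb7 stood at 17.2 and 19.4 CPM and had a log2 fold -0.11 ± 0.28 (SE), adjusted p 0.798. Within HoxD the values thus ran from near 0 for groups 4 and 8 to -4.47 for group 11. A missed threshold does not show that levels were alike. With the gate of all lineages raised from 80% to 95% of panel UMIs, 16 of 31 tested members were called in place of 25 of 37, and the count was 17 to 23 when 1 library was left out.

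Blood was lower than endothelium in 28 members and higher in none, where 47.9% of genes were called and 26.9% were lower. Endothelium sums come from MMPlow and blood sums from all 4 libraries, in a fit without separate MMP effects per lineage. These folds therefore include MMPhigh blood. All 10 tested HoxA members fell (median log2 fold -3.03), as did 8 of 9 HoxB members (-2.30), 5 of 9 HoxD members (-2.30) and 5 of 9 HoxC members (-1.39). The largest called falls were those of Hoxa11, Hoxd8 and Hoxd4. Hoxa11, a gene of forelimb and uterus, stood at 0.765 and 0.703 CPM in endothelium and 0, 0.213, 0 and 0.0589 in blood (log2 fold -3.70 ± 0.80 (SE), adjusted p 0.00215), a fold that depends on the prior count, with at most 2 UMIs in any blood library. Hoxd8 stood at 1.77, 0.533, 0.178 and 0.206 CPM in blood (log2 fold -3.61 ± 0.44 (SE), adjusted p 2.73e-05) and Hoxd4 at 3.55, 0.959, 1.51 and 0.914 (log2 fold -3.57 ± 0.36 (SE), adjusted p 1.57e-05). For Hoxd8 and Hoxd4 both endothelial sums lay above all 4 blood sums. Hoxa9 was 6.28-fold lower in blood (log2 fold -2.65 ± 0.38 (SE), adjusted p 3.89e-04) and Hoxb4 4.91-fold lower. Of the 9 members not called, 8 averaged under 1 CPM in both lineages. Hoxc8 was the other, with 3.99, 2.56, 3.73 and 2.65 CPM in blood and 3.86 and 3.66 in endothelium (log2 fold -0.70 ± 0.31 (SE), adjusted p 0.0887).

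Neural cells exceeded mesenchyme in 28 members, and 1 member was lower, where 46.1% of genes were called, 24.1% higher and 22% lower. All 9 tested HoxB members rose (median log2 fold 2.46), as did 8 of 9 HoxC members (1.44), 7 of 10 HoxA members (1.01) and 4 of 9 HoxD members. Hoxb1, the first HoxB gene, known from rhombomere 4 of the hindbrain, stood at 24.2, 23.4, 35.9 and 45.05 CPM in neural cells and 0, 0.991, 0 and 1.22 in mesenchyme (log2 fold 5.69 ± 0.40 (SE), adjusted p 1.86e-07). The 2 ranges did not overlap. Hoxb9 was 16.4-fold higher (log2 fold 4.04 ± 0.12 (SE), adjusted p 2.45e-10). Hoxc13, the most posterior HoxC gene, stood at 0, 4.57, 2.72 and 0.636 CPM in neural cells and 0, 0.496, 0 and 0 in mesenchyme (log2 fold 4.44 ± 0.99 (SE), adjusted p 0.00476), with MMPlow 1 at 0 in both lineages. Hoxd13, a gene of digits and the genital tubercle, went the other way: 2.39, 2.97, 3.63 and 1.63 CPM in mesenchyme and 0.732, 1.72, 0.703 and 0.462 in neural cells (log2 fold -1.77 ± 0.45 (SE), adjusted p 0.00572). Hoxd11 and Hoxc11 were not called, with log2 folds of -0.49 and 0.01.

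**Figure D4:**
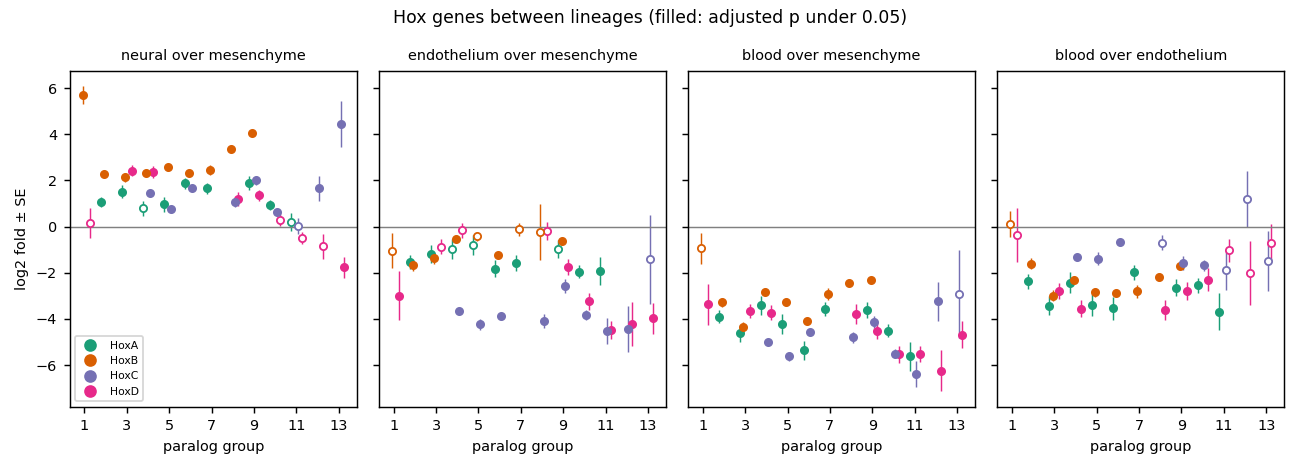
Log2 fold change with its standard error for tested Hox genes, against their paralog group, in the 4 lineage contrasts. Filled points have an adjusted p under 0.05. Blood over mesenchyme runs from -6.40 for Hoxc11 to -0.94 for Hoxb1. In endothelium over mesenchyme the HoxC points run from -4.525 to -1.424 and the HoxB points from -1.673 to -0.111.

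Within blood, 1 progenitor-like cluster stood apart by its HoxA share. Cluster 0, led by Cpa3, Angpt1 and Ikzf2, held 601 and 727 cells in MMPlow and 4 and 26 in MMPhigh. Its summed Hox level was 175 and 174 CPM in MMPlow and 176 in MMPhigh 2, and HoxA made up 62.4% of its Hox UMIs. Hoxa9 alone was 28.2% of them at 49.1 CPM, followed by Hoxa7 and Hoxa3. In the naming of cluster 0 the granulocyte or mast list, which holds Cpa3, came next, with a mean log2 fold of 1.19 against 2.21. The other progenitor-like cluster, 17, held 1062, 914, 53 and 97 cells, 98.1, 69.2, 12.9 and 39.9 CPM of Hox transcripts, and 31.7% HoxA. Its name is weakly held, with a mean log2 fold of 0.51 for the progenitor list against a minimum of 0.5, and Ermap, of the erythroid list, was among its leading genes beside Myb. Cluster 0 is described only, since the clusters come from the same cells. Over the whole progenitor-like class, Hoxa9 stood at 20.8, 20.8, 2.32 and 15.4 CPM. Its share of the Hox UMIs there was 1.68, 1.82, 2.04 and 3.37 times its share in the whole library, and the value of MMPhigh 1 rests on 3 Hoxa9 UMIs among 21 Hox UMIs. In endothelial-like cells that ratio was 1.35 and 1.22.

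The named endothelial-like clusters were alike in their leading member. All 6 were led by Hoxa9, at 29.9 to 54.7 CPM, their summed Hox level ran from 246 to 364 CPM, and HoxC made up 5.75 to 15.8% of Hox UMIs. Unnamed cluster 8, closest to the endothelial list with a mean log2 fold of 1.4, was led by Hoxb4 instead. Of the 2 mesenchymal-like clusters, cluster 21 held 1192 CPM with 40.5% HoxC. Cluster 19, led by smooth muscle genes such as Acta2 and Myh11, held 704 CPM with 34.9% HoxB and 28.4% HoxC.

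Counted per cell, at 1 common depth, neuron-like, mesenchymal-like and endothelial-like cells kept their order, and the blood classes of MMPhigh 1 did not all lie below them. With each cell thinned to 2000 UMIs, 96.7, 97.5, 99.4 and 99.7% of neuron-like cells held a Hox UMI, against 76.4, 78.9, 86.0 and 86.1% of mesenchymal-like cells and 42.6 and 44.1% of endothelial-like cells. Without thinning the shares were 99.1 to 100%, 90.2 to 99.3% and 60.6 and 65.7%. In MMPhigh 1 the thinned share was 56.1% of erythroid-like and 40.6% of macrophage-like cells, against 7.37 to 25.9% and 9.61 to 19.7% in the other libraries. The mean thinned Hox level of those MMPhigh 1 cells was 512 and 395 CPM, above the 290 and 303 CPM of endothelial-like cells in MMPlow. The neural panel of the macrophage-like sums was also highest in MMPhigh 1, at 244 CPM against 76.2, 71.7 and 86.1 in the others, as was that of the erythroid-like sums, and its part was not tested. Hoxa9 was found in 6.89% of endothelial-like cells of both MMPlow libraries (median 3142 and 3654 UMIs) and in 4.09 and 4.27% of progenitor-like cells (2840 and 3520). In erythroid-like cells, a maturing blood class set beside them, it was found in 1.05 and 1.37% of MMPlow cells (11250 and 13675 UMIs per cell before thinning). Unthinned, these Hoxa9 shares were 13.1 and 14.4%, 5.83 and 7.80%, and 4.21 and 4.45%. In MMPhigh the erythroid-like share was 6.39 and 4.36% and the progenitor-like share 0 and 2.44%. The neural panel stood at 376 and 176 CPM in those erythroid-like sums and at 41.7 and 70.3 in the progenitor-like sums, so the former gave no background for the latter. The count of 0 was in 57 cells that held 3 Hoxa9 UMIs before thinning, and its exact 95% binomial upper bound of 6.27% limits cells with a UMI at this depth, not cells expressing the gene. In MMPlow the endothelial panel stood at 338 and 333 CPM in erythroid-like sums against 807 and 634 in progenitor-like sums. Erythroid-like cells thus gave no matched background for progenitor-like cells there either.

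The number of different members per cell ordered the classes much as the summed level did. The 2 are not independent, since cells with fewer Hox UMIs show fewer members. Among cells thinned to 10000 UMIs, neuron-like cells held a median of 18 and 17 members in MMPhigh 1 and MMPhigh 2, with a highest value of 26. Glial or neural crest-like cells of MMPhigh 2 held 10, mesenchymal-like cells 6 to 7, muscle progenitor-like cells 4 to 5 and endothelial-like cells 2. The median was 0 in every blood class and library with enough cells, and in germ cell-like cells of MMPhigh 2. These values cover the deeper cells only: in MMPlow 1 endothelial-like cells, 114 were deep enough and 7304 were not.

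The partners of the Hox proteins were followed in the same fits, over a list of 26 genes of which 23 were tested between lineages. The 9 TALE partners were all lower in blood than in mesenchyme (median log2 fold -1.70), a contrast in which 66.6% of genes were called and 33.1% were lower. Meis1, a cofactor of Hoxa9 needed for blood stem cells, stood at 539, 696, 769.9 and 797 CPM in mesenchyme, 294, 251, 124 and 116 in blood and 63.02 and 64.3 in endothelium. It was higher in blood than in endothelium (log2 fold 1.68 ± 0.36 (SE), adjusted p 0.00401), opposite in sign to all 28 called Hox members. Meis3 rose likewise in that contrast (log2 fold 0.88 ± 0.20 (SE), adjusted p 0.00302), whereas Pbx3, Meis2 and Pknox2 fell and 4 partners were not called, where 47.9% of genes were called. Between endothelium and mesenchyme 6 partners fell and none rose, where 36.5% of genes were called. In neural cells Pbx3, Meis3, Pbx4 and Pknox1 were higher than in mesenchyme, and Pknox2 was lower, where 46.1% of genes were called. Of the 5 trithorax-type genes 3 fell in blood against mesenchyme, and of the 7 Polycomb-type genes 2 rose and 5 fell, counts to be read against the 33.5% of genes higher and 33.1% lower there. Cbx2, a Polycomb subunit, had the largest fall of the Polycomb-type genes (log2 fold -3.32 ± 0.27 (SE), adjusted p 3.43e-07). Gdf11, a secreted signal that sets posterior Hox expression, was higher in neural cells than in mesenchyme (log2 fold 2.21 ± 0.20 (SE), adjusted p 1.46e-06). None of the 3 caudal factors Cdx1, Cdx2 and Cdx4 passed the filter on low counts in the lineages.

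Over all retained cells, Hox transcripts were higher in MMPhigh than in MMPlow. The sum was 412 and 393 CPM in MMPlow and 1493 and 1634 in MMPhigh. Of 38 tested members 34 rose and none fell, where 53.8% of 20383 genes were called and 27.3% were higher. The largest changes were those of Hoxb1 (log2 fold 3.98 ± 0.20 (SE), adjusted p 1.57e-06) and Hoxb9 (log2 fold 2.84 ± 0.09 (SE), adjusted p 1.91e-07). Neural-gated cells were 252 of 15698 and 324 of 18404 retained cells in MMPlow, against 1174 of 4248 and 1139 of 3389 in MMPhigh. The endothelium-gated cells went the other way, as given above. The part of this shift in cell types in the change over all cells was not tested as such, but the comparison was repeated within lineages.

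Within neural cells 8 of 36 tested members were higher in MMPhigh and none lower, where 4.76% of genes were called, 1.93% higher and 2.83% lower. The median Hox log2 fold was 0.32, against 0.01 over all genes. Hoxb1, given above, had a log2 fold 0.80 ± 0.20 (SE), adjusted p 0.0314, Hoxb3 a log2 fold 0.79 ± 0.14 (SE), adjusted p 0.00432, and Hoxc8 a log2 fold 0.79 ± 0.18 (SE), adjusted p 0.0240. For each of these 3 genes both MMPhigh libraries lay above both MMPlow libraries. Hoxc5 rose from 64.4 and 65.8 CPM in MMPlow to 94.7 and 116 in MMPhigh, and Hoxb6, a gene of the trunk, from 155 and 133 to 213 and 243. Hoxa5, Hoxb5 and Hoxd3 were the other 3 that rose. The count fell from 8 when either MMPlow library was left out, and to 1 with the looser cell filter. In the neural sums the endothelial panel stood at 402 and 364 CPM in MMPlow and 14.1 and 14.6 in MMPhigh, and the blood panel at 224, 189, 80.5 and 55.3 CPM. Over all libraries the neural gate held 1958 neuron-like cells, 763 cells of unnamed clusters and 70 erythroid-like cells. The part of RNA from other cells, and of the make-up of this gate, in these changes was not tested.

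The neuron-like class had more calls: 21 of 34 tested members were higher in MMPhigh and none lower, where 26% of genes were called and 11.4% were higher. Hoxb1 stood at 19.8, 18.9, 42.3 and 50.9 CPM (log2 fold 1.32 ± 0.17 (SE), adjusted p 7.06e-04). Hoxc8 stood at 101, 139, 255 and 300.5 CPM, Hoxb5 at 68.9, 51.4, 119.9 and 118, Hoxb3 at 192, 172, 340.4 and 335 and Hoxb2 at 69.5, 98.9, 161 and 144. In all 5 genes both MMPhigh libraries were above both MMPlow libraries. All 9 tested HoxB members were among the 21. Some members were called lower when MMPhigh 1 was left out. In these sums the neural panel stood at 4995 and 5424 CPM in MMPlow and 7731 and 8061 in MMPhigh, the endothelial panel at 768, 644, 12.6 and 15.3, the blood panel at 397, 268, 59.1 and 72.2, and their part was not tested. In glial or neural crest-like cells no member of 22 was called by edgeR, where 1.75% of genes were called, and 2 had an unadjusted p under 0.05. In germ cell-like cells no member passed the filter on low counts, where 7.43% of genes were called, 4.42% higher and 3.01% lower.

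In mesenchyme 3 of the 5 members that rose belonged to HoxC. Of 30 tested members 5 were higher in MMPhigh and none lower, where 12.3% of genes were called, 4.73% higher and 7.62% lower. Hoxc9, a thoracic HoxC gene, stood at 29.4, 29.7, 79.8 and 65.2 CPM (log2 fold 1.29 ± 0.18 (SE), adjusted p 1.73e-04). Hoxc5, given above for mesenchyme, had a log2 fold 0.96 ± 0.15 (SE), adjusted p 7.26e-04, and Hoxc10, a lumbar gene, stood at 29.4, 45.6, 70.9 and 72.6 CPM (log2 fold 0.90 ± 0.18 (SE), adjusted p 0.00322). The remaining calls were Hoxd4 (log2 fold 0.79 ± 0.24 (SE), adjusted p 0.0439) and Hoxa7 (log2 fold 0.53 ± 0.15 (SE), adjusted p 0.0322). In all 5 genes the 2 MMPhigh libraries lay above the 2 MMPlow libraries. The count was 3 without MMPlow 1, 3 without MMPlow 2 and 9 without MMPhigh 1. The neural panel in these sums stood at 54.1 and 57.5 CPM in MMPlow and 129 and 140 in MMPhigh, the endothelial panel at 238, 262, 28.2 and 24.1, and their part was not tested.

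In the mesenchymal-like class 12 of 33 members were higher in MMPhigh and none lower, where 19.7% of genes were called and 7.49% were higher. All 7 tested HoxC members were among the 12. Cluster 19 supplied 243 of 1377 and 258 of 1438 cells in MMPlow but 14 of 221 and 15 of 302 in MMPhigh. The part of this mix was not tested. The neural panel of this class stood at 149 and 144 CPM in MMPlow and 218 and 198 in MMPhigh. The endothelial panel stood at 761, 612, 32.99 and 37.2 CPM and the blood panel at 339, 282, 73.1 and 33.4, and their part was not tested. Hoxc11 stood at 7.25, 4.47, 13.6 and 12.9 CPM (log2 fold 1.24 ± 0.27 (SE), adjusted p 0.00547) and Hoxc9 at 37.2, 34.4, 91.9 and 70.2 (log2 fold 1.21 ± 0.14 (SE), adjusted p 6.92e-05). Hoxd11 stood at 9.02, 9.82, 16.2 and 24.2, Hoxc8 at 72.9, 79.4, 126 and 173 and Hoxc5 at 41.4, 46.5, 84.2 and 77.2 CPM. Muscle progenitor-like cells had 1 call of 21, Hoxc8 at 55.7, 90.3, 152 and 141 CPM (log2 fold 1.03 ± 0.22 (SE), adjusted p 0.0203), where 2.64% of genes were called, 0.424% higher and 2.22% lower. The neural panel of these sums stood at 204, 384, 468 and 458 CPM, the endothelial panel at 558, 581, 14.7 and 19.7 and the blood panel at 271, 205, 147 and 98.7, and their part was not tested. The Hoxc8 call was absent without MMPlow 1, and 2 members were called without either MMPhigh library.

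In blood the called members went in the opposite direction, and 4 of the 5 belonged to HoxA. Of 21 tested members 5 were lower in MMPhigh and none higher, where 30.9% of 14005 genes were called and 16.8% were lower. The share of members called was thus close to the background. The HoxA median was -1.41, with 4 of 5 tested members called, while HoxB had a median of -0.01 with 1 of 8 called and HoxC 0.12 with 0 of 6. Hoxa9, with blood levels given above, had a log2 fold -1.41 ± 0.23 (SE), adjusted p 0.00101, and Hoxa7 a log2 fold -1.04 ± 0.27 (SE), adjusted p 0.0121. Hoxa5, a gene of lung and neck that also acts in erythroid and myeloid cells, stood at 3.33, 3.41, 0.711 and 0.884 CPM (log2 fold -1.87 ± 0.38 (SE), adjusted p 0.00358). Hoxa3 stood at 5.99, 2.77, 1.15 and 1.21 (log2 fold -1.61 ± 0.41 (SE), adjusted p 0.0118) and Hoxb7 at 3.10, 4.37, 1.69 and 1.09 CPM (log2 fold -1.41 ± 0.38 (SE), adjusted p 0.0158). In all 5 genes both MMPhigh libraries lay below both MMPlow libraries. The count was 3 without MMPlow 1 and 3 without MMPlow 2, and without MMPhigh 2 there were 4 lower calls and 1 higher.

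The make-up of the blood gate moved with these calls. Macrophage-like cells were 36.4 and 37.8% of blood-gated cells in MMPlow and 79.4 and 79.9% in MMPhigh. Progenitor-like cells were 19.0 and 17.2% in MMPlow and 2.60 and 5.07% in MMPhigh, and megakaryocyte-like cells 13 and 12.2% against 4.42 and 4.53%. Cells of unnamed clusters were 26.7 and 24.7% in MMPlow and 1.95 and 1.6% in MMPhigh, and erythroid-like cells 1.71 and 3.19% against 10.3 and 8%. The endothelial panel in the blood sums stood at 288 and 284 CPM in MMPlow and 69.7 and 76.3 in MMPhigh. Their part in the fall of Hoxa9 and its neighbours was not tested.

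Within blood classes the calls were fewer and differed. In progenitor-like cells 4 of 17 members were lower in MMPhigh and none higher, where 28.6% of genes were called and 16% were lower. These were Hoxb7 at 6.16, 4.46, 0.773 and 0.999 CPM, Hoxa3 at 9.86, 8.67, 0 and 2.40, Hoxa5 at 8.10, 5.06, 0.773 and 2.00 and Hoxb4 at 4.93, 5.66, 1.55 and 1.40, with adjusted p from edgeR between 0.00767 and 0.0353. Hoxa9 was not called there (log2 fold -0.58 ± 0.49 (SE), adjusted p 0.426). The MMPhigh sums come from 57 and 123 cells, mostly of cluster 17, whereas the MMPlow sums hold clusters 0 and 17, so the clusters behind the 2 groups differ. The endothelial panel in these sums stood at 807 and 634 CPM in MMPlow and 174 and 216 in MMPhigh, and its part was not tested. Only 1 call was made without MMPlow 1 and 2 without MMPhigh 1.

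In macrophage-like cells none of 21 members was called by edgeR, where 20.9% of genes were called, and none had an unadjusted p under 0.05. Cluster 14 supplied 625 and 667 cells of this class in MMPlow but 11 and 5 in MMPhigh, so the clusters behind the groups differ. The 2 MMPhigh libraries lay on opposite sides of MMPlow. The summed Hox level of this class was 152 CPM in MMPhigh 1 and 45.5 in MMPhigh 2, against 110 and 77.3 in MMPlow. Megakaryocyte-like cells had 3 calls of 17, where 13.2% of genes were called, 5.17% higher and 8.01% lower. Hoxc5 stood at 1.55, 1.23, 8.88 and 3.57 CPM and Hoxc4 at 4.33, 1.43, 13.3 and 7.14, both higher in MMPhigh, and Hoxa9 at 11.4, 11.46, 5.18 and 3.57, lower in MMPhigh (log2 fold -1.33 ± 0.41 (SE), adjusted p 0.0404). In these sums the neural panel stood at 82.6, 68.98, 147 and 54.8 CPM, the mesenchyme panel at 56.6, 53.2, 87.3 and 20.1 and the endothelial panel at 1050, 865, 305 and 330, and their part was not tested. None of the 3 was called without MMPlow 1 or without MMPlow 2. The Hox median was -0.51 without MMPhigh 1 and 0.92 without MMPhigh 2, so the direction in this class depends on the MMPhigh library kept. Erythroid-like cells had 4 calls of 18, all higher in MMPhigh, where 3.41% of genes were called, 1.46% higher and 1.95% lower. Hoxb9 stood at 1.43, 3.38, 21.7 and 11.51 CPM (log2 fold 2.64 ± 0.48 (SE), adjusted p 0.0164), Hoxb8 at 1.91, 1.30, 12.5 and 5.33, Hoxc4 at 1.43, 1.30, 7.99 and 4.91 and Hoxc6 at 2.39, 1.82, 11.8 and 5.39. The neural panel in the same sums stood at 29.1, 48.6, 376 and 176 CPM, and cluster 11 supplied most MMPhigh 1 cells, as described. The count became 8 without MMPlow 1, 8 without MMPhigh 1 and 20 without MMPhigh 2.

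The difference in direction between lineages was tested as an interaction of lineage and MMP group, with the library as a block. Relative to mesenchyme, 8 of 37 members changed towards lower values in blood and none towards higher values, where 15.2% of genes were called and 7.68% were lower. Relative to neural cells the number was 9 and none, where 14.7% were called and 9.1% were lower. Of the 10 tested HoxA members 6 were called in each. Hoxa9 had a difference of -1.85 against mesenchyme and -1.61 against neural cells on the log2 scale (edgeR adjusted p 3.58e-06 and 9.41e-06). Both interactions share the blood sums. Between neural cells and mesenchyme no member was called by edgeR, where 1.28% of genes were called, and 8 had an unadjusted p under 0.05. DESeq2 also called 0. With a library left out, the blood-to-mesenchyme count was 4 without MMPlow 1 and 5 without MMPhigh 2, and the blood-to-neural count was 4 without MMPlow 1.

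**Figure D5:**
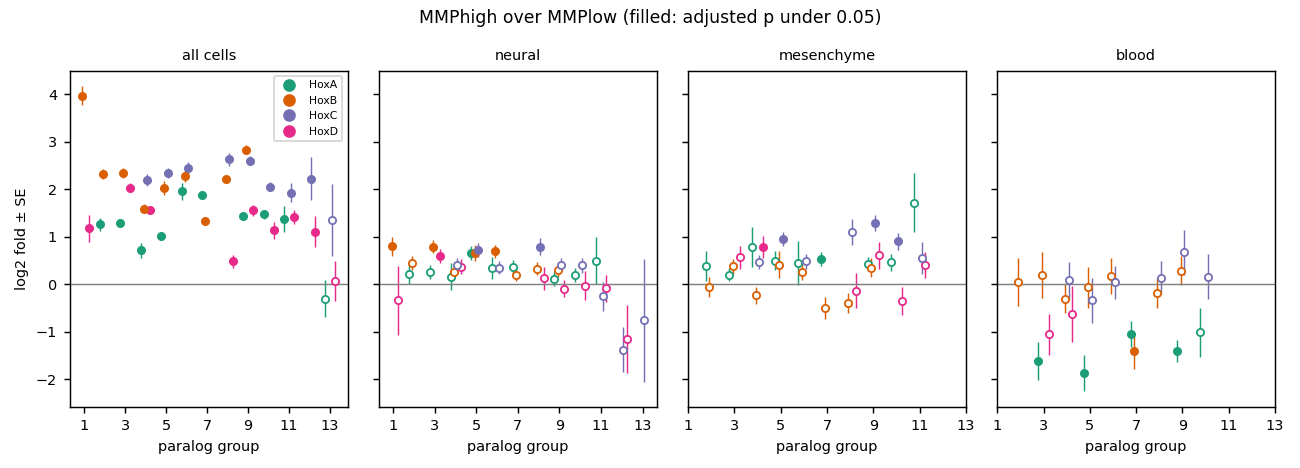
Log2 fold change of MMPhigh over MMPlow with its standard error for tested Hox genes, against their paralog group, in all cells, neural cells, mesenchyme and blood. Filled points have an adjusted p under 0.05, with 34 filled in all cells and 5 in blood, where all 5 lie below 0.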

How the data were processed

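Single-cell RNA was measured in 4 libraries, 2 of MMPlow and 2 of MMPhigh cells, all labelled CD31+. They were made with the Chromium Single Cell 3' v3 chemistry per the labels' protocols. The authors deposited raw UMI counts per gene and barcode. Per the file headers these came from Cell Ranger 7.0.1, while the submitters' processing notes name Cell Ranger 2.1.1 and mm10. The annotation, the treatment of introns and the strand setting are not given in the sources used here.

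The barcodes numbered 59928, 23715, 13939 and 4288, with 51800709 to 120168395 UMIs per library. Cells with at least 2000 UMIs, 1000 genes and at most 25% mitochondrial UMIs were kept. Scrublet marked 1, 886, 0 and 0 cells as doublets with its own threshold, which was taken as a failure, so the cells of highest score were removed instead, at 0.8% per 1000 cells and at most 6%. That share was chosen after the marks had been seen. Cells were clustered with scanpy 1.11.5 (2000 variable genes without Hox genes, 30 components, resolution 1) and named from 16 marker lists, and 6 of the 29 clusters stayed unnamed.

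Raw UMIs were summed per library and cell group of at least 20 cells and tested over all genes with edgeR 4.0.16 (quasi-likelihood, TMM, filterByExpr, Benjamini-Hochberg threshold 0.05), with the library as a block between lineages. Panel genes were left out of the tested genes there. Standard errors were derived from the fold and its p. CPM were computed here and served for levels, ranges, ranks and the choice of the highest members, not for the tests. In simulated data the procedure recovered 54 to 69% of changes of 1 log2 unit and 78 to 93% of those of 2 log2 units. It made 8 to 28 false calls per comparison, among 12369 to 20383 genes. In most comparisons these were a larger share of the calls than the threshold of 0.05. Few genes were changed in the simulations, and each gene had 1 mean level over all sums. The rates may thus not hold for contrasts in which most genes were called. Alternatives covered normalization (RLE), DESeq2 1.42.0, filters, gates, clusterings, thinning, the replicate number as a block and each library left out. The exact test of a single value in 2 against 2 libraries cannot go below p = 0.333, so none was run.

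The members and lists were chosen with earlier results of these data known. Named with values in every library were the 3 highest members per lineage, 6 genes known from blood, the 3 largest called folds per direction and lineage contrast, and up to 5 calls per MMP comparison, 29 members in all. Cluster numbers, Hoxd8 and Hoxd11 in other contrasts, and unnamed clusters were added after their values were seen. Intervals and counting limits cover counting error only. Values of 1 member and 1 partner gene are not reported here, though they enter the sums and counts.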

Additional observations from a re-analysis of the deposited data

Results flagged for a closer look

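The change of a member from MMPlow to MMPhigh differed between lineages in 17 comparisons, by the interaction test with the library as a block (edgeR, adjusted p under 0.05). Each value is the MMPhigh effect in blood minus that in the other lineage on the log2 scale, and all 17 were negative. Against mesenchyme the HoxA values were -2.47 for Hoxa4, -2.31 for Hoxa5, -1.85 for Hoxa9, -1.76 for Hoxa3, -1.54 for Hoxa7 and -1.49 for Hoxa10. Hoxd3, at -1.57, and Hoxc5, at -1.32, were the other 2. Against neural cells the same 6 HoxA genes stood at -1.94 for Hoxa4, -2.55 for Hoxa5, -1.61 for Hoxa9, -1.89 for Hoxa3, -1.45 for Hoxa7 and -1.30 for Hoxa10. Hoxd8 at -2.31, Hoxb7 at -1.75 and Hoxd3 at -1.67 completed the list. Within blood alone only 5 HoxA members passed the filter on low counts, so not all 6 had enough blood UMIs for that fit. The Hoxd8 value rests on the low MMPhigh blood levels given in the report. Both sets share the blood sums, whose cell types differed between the MMP groups as given in the report, and the part of that difference was not tested.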

How the results depend on the processing

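No named member called in all cells, in a lineage or in an interaction changed sign under the alternatives run, and within classes only counts and medians were recomputed. The median over members changed sign in 3 classes when 1 library was left out. In macrophage-like cells it was -0.06 as reported, 0.59 without MMPlow 1, 0.10 without MMPlow 2 and 0.80 without MMPhigh 2. In megakaryocyte-like cells it was 0.19, -0.24 without MMPlow 2 and -0.51 without MMPhigh 1, and in glial or neural crest-like cells 0.28 and -0.02 without MMPlow 2. Of the recomputed counts and summed levels 223 stayed within 1.5 times or the spread and 46 moved, and of the recomputed results on single members 1824 kept their call and 120 lost it. The number of members called from MMPlow to MMPhigh moved most. In blood it was 3 with the looser and 2 with the stricter cell filter in place of 5, in mesenchyme 11 without the filter on low counts in place of 5, and in neural cells 1 with the looser cell filter in place of 8. The gate at 95% for all lineages gave 16 calls among 31 tested members between endothelium and mesenchyme, in place of 25 among 37. With the MMPhigh endothelium sums kept, an alternative added after seeing the data, the lineage contrasts gave 34, 27, 27 and 28 calls in place of 35, 25, 28 and 29. The cause was not tested.

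Summed levels moved with the clustering, in part with other libraries, since a library counts only with 20 or more cells of the class. At resolution 2 the means were 663 CPM for epithelial or mesonephric-like cells (4 libraries in place of 2), 181 for haematopoietic progenitor-like (3 in place of 4) and 159 for megakaryocyte-like cells. At resolution 0.5 they were 1675 for glial or neural crest-like and 153 for granulocyte or mast-like cells (3 in place of 2). With Hox genes allowed they were 83.0 for granulocyte or mast-like (3 in place of 2) and 145 for haematopoietic progenitor-like cells, and with doublets kept 1778 for glial or neural crest-like, 117 for granulocyte or mast-like and 127 for haematopoietic progenitor-like cells. In cells thinned to 2000 UMIs, erythroid-like cells held 212 and macrophage-like cells 164 CPM. The part of each step was not tested.

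With 1 library left out, which leaves a lone library assumed to vary like the rest, the counts ranged as follows. From MMPlow to MMPhigh they were 31 to 34 in all cells, 3 to 5 in blood, 3 to 9 in mesenchyme and 2 to 10 in neural cells. In classes they were 16 to 21 for neuron-like, 8 to 14 for mesenchymal-like, 0 to 2 for muscle progenitor-like, 0 to 1 for glial or neural crest-like, 1 to 3 for haematopoietic progenitor-like, 0 to 7 for macrophage-like, 0 to 5 for megakaryocyte-like and 5 to 20 for erythroid-like cells. The interactions gave 4 to 9 for blood and mesenchyme, 4 to 10 for blood and neural cells and 0 to 1 for neural cells and mesenchyme. The lineage contrasts gave 33 to 36, 17 to 23, 27 to 28 and 26 to 28.

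The labels number the libraries 1 and 2 in both groups, with nothing to say what the numbers share. Deviations of same-numbered libraries correlated at 0.116 over all cells, 0.123 in blood, 0.0244 in mesenchyme and 0.0408 in neural cells, with 2 pairs only. The replicate block gave 34 members in all cells, 5 in blood, 7 in neural cells and 10 in mesenchyme. In classes it gave 11 for erythroid-like and 4 for macrophage-like cells, 3 of them higher and 1 lower. The MMP groups were not compared in endothelium, since in each setting at least 1 MMPhigh library had under 20 such cells.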

Other observations

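Antisense RNAs named after the Hox clusters, which are no members of the gene family, were also counted, and 3 are given here. Hoxb5os stood at 95.2, 111, 115 and 104 CPM in neural cells, 13.5, 11.9, 10.9 and 9.89 in mesenchyme, 3.58 and 2.99 in MMPlow endothelium and 2.66, 1.39, 1.69 and 1.18 in blood. Hoxaas3, which lies opposite Hoxa3 to Hoxa7, stood at 24.6 and 23.03 CPM in endothelium and 20.7, 29.2, 16.5 and 17.8 in mesenchyme, so the endothelial values lay within the mesenchymal range, and at 2.88, 3.20, 1.07 and 0.472 in blood. Hoxd3os1 averaged 34.8 CPM in neural cells, 13.01 in endothelium, 8.40 in mesenchyme and 0.765 in blood. Their reads cannot be told apart from those of the opposite genes where the counting did not use strand, and the strand setting is not given in the sources used here.

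Unnamed clusters also differed in Hox level. Cluster 20, with Wt1 and Aldh1a2 among its leading genes, held 927 CPM, and cluster 13, with Neurod1 and Isl1 but also the liver genes Afp and Alb among its leading genes, held 2268 CPM. Cluster 8, closest to the endothelial list and with Stab2 and Lyve1 among its leading genes, held 180 CPM. It was the only 1 of the 29 led by Hoxb4, at 22.96 CPM. The other unnamed clusters, 3, 16 and 25, held 108, 561 and 167 CPM.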
